A study of Mus musculus with 6 samples.

Results

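The potassium channel genes of the mouse cerebral cortex were taken as every gene whose symbol starts with Kcn, apart from the auxiliary subunit Kcne2 and the inward rectifiers Kcnj10 and Kcnj13, which were left out. This gave 72 of the 13582 genes in the expression table, and all 72 passed the filter on low values. The tissue was the right cortex of 10-week-old C57BL/6 mice. Each mouse had received 1 intraperitoneal injection, either of vehicle (3 mice) or of resveratrol at 10 mg/kg (3 mice), and was killed 2 weeks later. Resveratrol is a plant polyphenol, and the study asked which transcripts differ in the cortex during the later period of ischaemic tolerance that follows it. The labels give 10 mg/kg for vehicle as well, without saying of what. Each library came from ribosome-depleted total RNA of 1 cortex, so RNA from fewer cells of a type and less RNA per cell cannot be told apart. Levels are FPKM, fragments scaled to transcript length and to the mapped fragments of the library, which are per length and so can be set side by side between genes. Read depth per library is not given in the sources used here, and the FPKM values did not give it, so no counting interval is attached to a level. Separate mice gave the 6 libraries, and the vehicle libraries did not stand together. On the first principal component over all genes (43.3% of variance), the scores placed vehicle 1 and 2 at -16.5 and -25.7 and vehicle 3 at 18.7, with the resveratrol libraries between 1.45 and 12.4, so vehicle 3 lay beyond all of them.

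Potassium channels let potassium ions leave the cell and thereby set the resting potential, end action potentials and limit repetitive firing. A channel is built from pore-forming alpha subunits. Voltage-gated, calcium-activated and inwardly rectifying channels assemble as tetramers, while tandem-pore (K2P) subunits carry a pair of pore loops each and assemble as dimers. Each pore loop holds a selectivity filter that strips water from the ion, in most loops with a glycine, tyrosine or phenylalanine, glycine motif. Auxiliary beta, KChIP and KCNE subunits bind the alpha subunits and change their gating and trafficking. The label holds for most but not all of the 72 genes. There were 51 genes of conducting alpha subunits, 9 genes of the electrically silent Kv5, Kv6, Kv8 and Kv9 subunits, which work only in heteromers with Kv2, 10 genes of auxiliary subunits that form no pore, and 2 antisense noncoding transcripts.

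The filter is the feature that the alpha subunits share. The stretch of coding sequence around it is shown for leading members of several families and for some of those named in the comparison. Each is 33 bases, 5′ to 3′ along the coding strand, from the longest-coding GENCODE M21 transcript of the gene (GRCm38). The capitals mark 5 codons read in frame on that strand: a threonine codon (ACN) or a serine codon (TCN, AGT or AGC), any codon, a glycine codon (GGN), a tyrosine codon (TAT or TAC) or a phenylalanine codon (TTT or TTC), and again a glycine codon (GGN), where N is any base.
Kcna2: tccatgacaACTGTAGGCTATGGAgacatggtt
Kcns1: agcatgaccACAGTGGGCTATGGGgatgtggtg
Kcnd2: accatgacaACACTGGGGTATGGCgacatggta
Kcnh7: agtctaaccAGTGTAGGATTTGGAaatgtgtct
Kcnma1: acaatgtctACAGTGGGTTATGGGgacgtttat
Kcnj9: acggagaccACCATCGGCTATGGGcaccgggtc
Kcnk3, first pore: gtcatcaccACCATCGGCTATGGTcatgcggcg
Kcnk3, second pore: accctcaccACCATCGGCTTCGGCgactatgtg

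All 60 alpha and silent subunits held these letters and none of the 10 auxiliary subunits did, so 60 of the 70 coding members (85.7%) matched, against 380 of 12565 coding genes in the table (3.02%). Kcn symbols are given to channel genes and their subunits, so this split follows from the choice by symbol and is no support for it. Coding sequences differ in length, and a match of letters is a description, not a functional site. Among the 9 K2P genes, 7 held the motif at 2 places and Kcnk1 and Kcnk6 at 1, so a pore loop of each of these did not match the letters. The codon between the glycines was tyrosine in 46 of the 67 matches and phenylalanine in 21, as in Kcnh7 and in the second pore of Kcnk3. GENCODE M21 lists 91 protein-coding genes with a Kcn symbol once the 3 left out are set aside, and the 21 others, among them Kcnq1, Kcnn4 and Kcne1, were not analysed here.

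Levels differed widely between the genes. The median member had a mean of 13.1 FPKM over the 6 libraries, against 10.2 FPKM for the median of all genes tested. There were 9 members at a mean of 50 FPKM or more, 30 at 20 FPKM or more and 11 under 2 FPKM. Kcnab2, a cytoplasmic beta subunit of Kv1 channels, had the highest mean at 88.2 FPKM. Kcnma1, the pore of the large-conductance calcium-activated (BK) channel, followed at 67.6 FPKM, and the ERG channel gene Kcnh7 at 60.7 FPKM. Kcnj4 (53.9 FPKM, a strong inward rectifier), Kcnk1 (53.8 FPKM, a background leak channel), Kcnj3 (53 FPKM, a G protein-gated inward rectifier), Kcna2 (52.8 FPKM) and Kcna1 (50.8 FPKM), the low-threshold channels of axons, and Kcnab1 (51.9 FPKM) lay within a few FPKM of one another. That is less than the SD among the vehicle libraries for most of them, which was 6.72 FPKM for Kcna2 and 6.68 FPKM for Kcnk1. The lowest means were 0.666 FPKM for the inward rectifier Kcnj14 and 0.675 FPKM for the noncoding Kcnmb4os2.

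**Figure D1:**
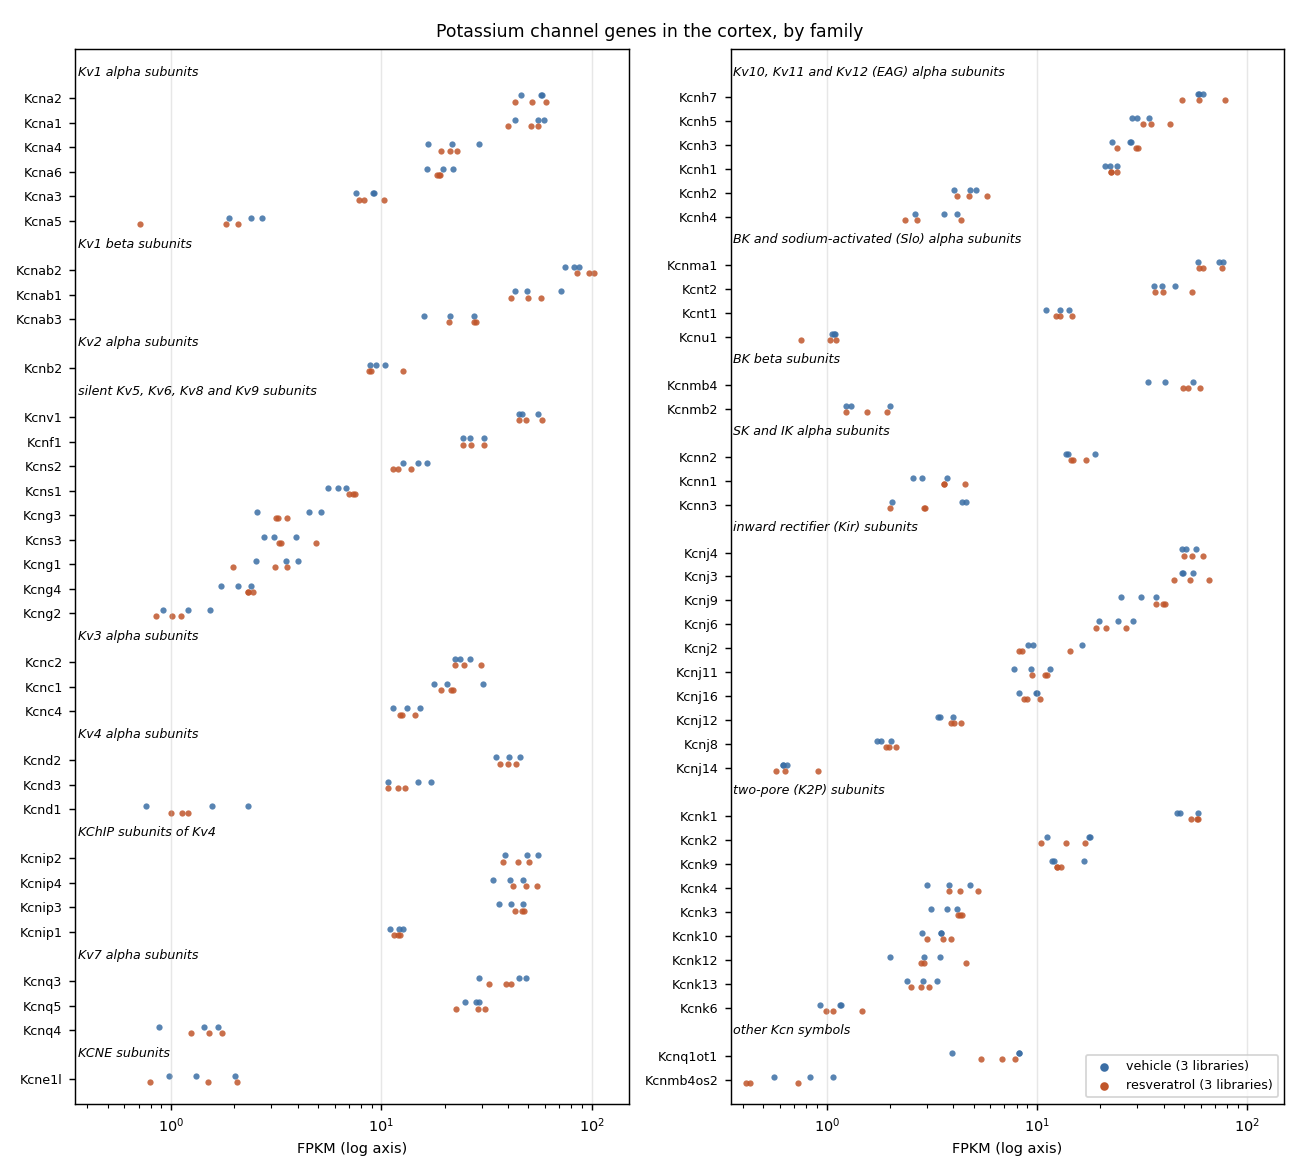
FPKM of the Kcn genes reported in each of the 6 libraries on a log axis, grouped by channel family. Points of a gene lie close together compared with the spread between genes, from Kcnab2 at a mean of 88.2 FPKM to Kcnj14 at 0.666 FPKM.

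By role, conducting alpha subunits held 68.4% of the summed Kcn FPKM, auxiliary subunits 23.8%, silent subunits 7.31% and the noncoding transcripts 0.487%. By family, inward rectifiers held the largest share at 13.3%, followed by Kv1 beta subunits (10.8%), Kv1 alpha subunits (10.2%), the EAG family (10%) and the KChIP subunits of Kv4 (9.62%). A single gene made up most of several families. Kcnmb4 was 96.9% of the BK beta FPKM, Kcnd2 73.5% of Kv4 and Kcnn2 70.1% of the small-conductance calcium-activated (SK) family. In the Kir family the leading gene, Kcnj4, was 26.7%. Kv4 alpha subunits, which carry the somatodendritic A-type current, held 3.6%, while the KChIP subunits that bind them held 9.62%, with Kcnip2 (45.9 FPKM), Kcnip4 (44.6 FPKM) and Kcnip3 (43.7 FPKM) at similar levels.

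No potassium channel gene differed between resveratrol and vehicle at an adjusted p under 0.05. The test was limma on log2(FPKM + 0.5) with Benjamini-Hochberg adjustment across the 13574 genes tested, and 0 of 72 members passed. Over all genes 1 passed, higher in resveratrol, and 0 passed lower (0.00737% called). Every fold change below is the resveratrol mean minus the vehicle mean on that log2 scale, which understates changes of low genes. The adjusted p of the members ran from 0.987 to 0.999 with limma, and 0 members passed under every alternative run except limma's array weights, which let the libraries count unequally. Estimated gene by gene, these weights called 9 members higher and 3 lower (12.5% and 4.17%, against 6.65% and 3.59% of all genes), and estimated by REML 19 higher and 11 lower (26.4% and 15.3%, against 21.3% and 15% of all genes). The REML estimate stopped before it converged and was added after the data were seen. Both estimates rested mostly on vehicle 1 and resveratrol 2, with weights of 4.02 and 3.55 gene by gene and 5.02 and 9.2 by REML. At an unadjusted p under 0.05 there was 1 member of 72 (1.39%), higher in resveratrol, against 2.42% of all genes (1.64% higher and 0.788% lower). Members were split evenly by direction, with 37 higher and 35 lower (51.4% higher, against 56.1% of all genes higher and 43.9% lower), and the median log2 fold change was 0.02 for the members and 0.02 for all genes. The fold changes ran from -0.54 to 0.34, and 61 of 72 were under 0.25 in size. The 95% limma interval lay within a 2-fold change in either direction for 71 members, Kcna5 being the exception, and within 1.5-fold for 50 (69.4%, against 80.6% of all genes). For the rest, a 1.5-fold difference lay within the interval.

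**Figure D2:**
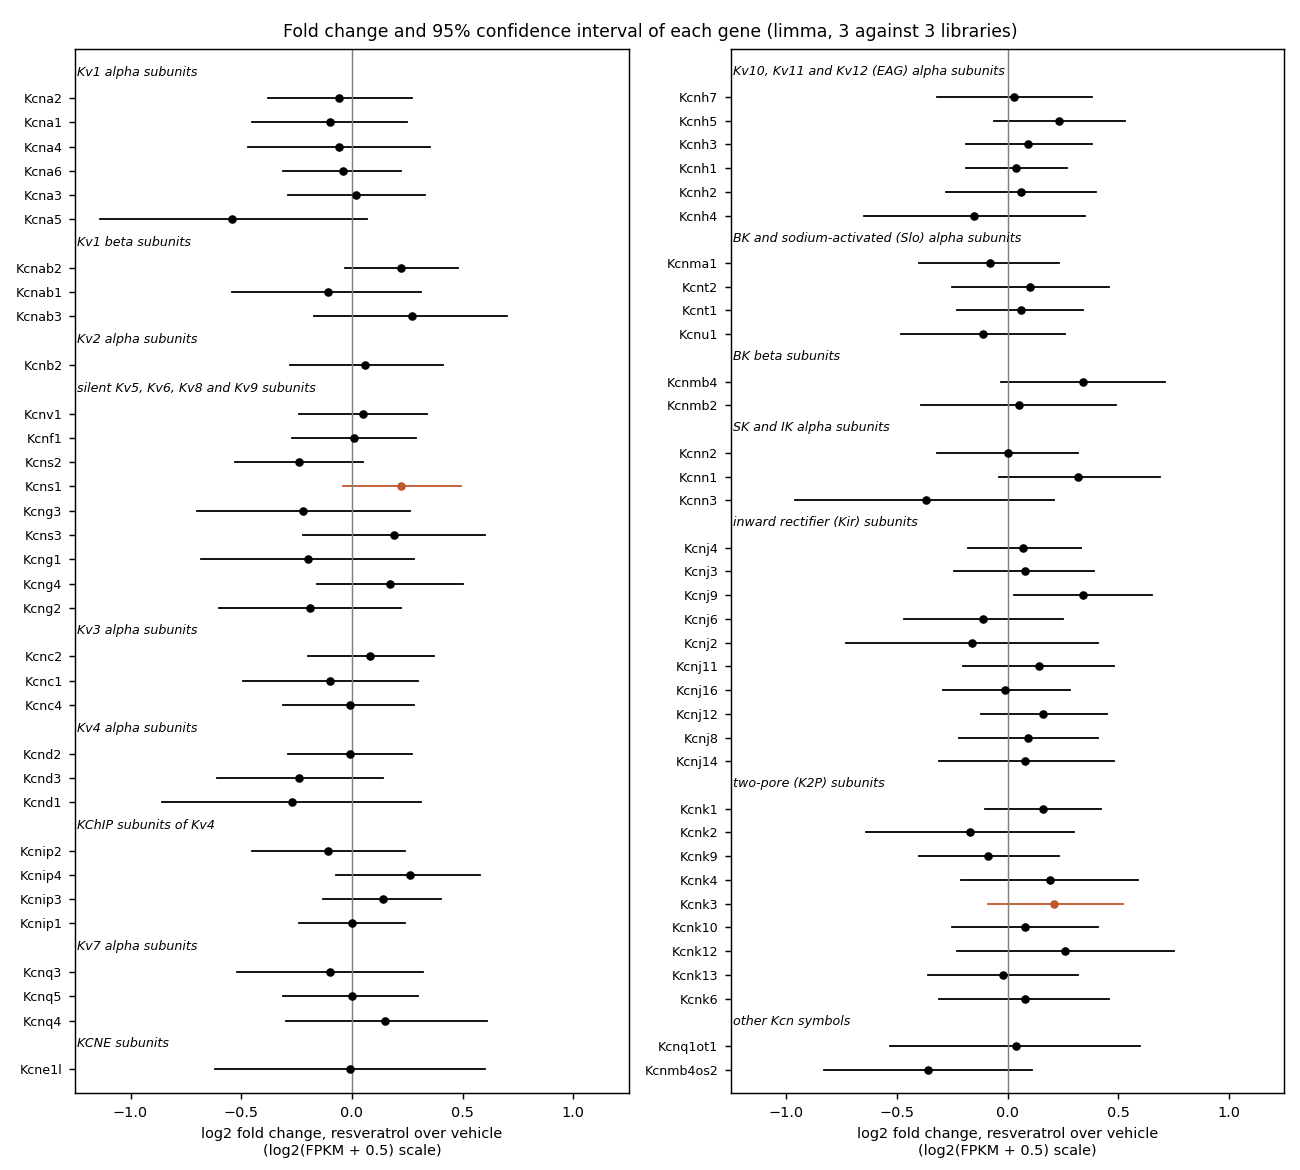
Log2 fold change of the Kcn genes reported, resveratrol minus vehicle, on log2(FPKM + 0.5), with the 95% limma interval as a bar, grouped by family. Orange marks Kcns1 and Kcnk3, whose groups do not overlap, and every interval except that of Kcnj9 (0.34) includes 0.

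Of the conducting subunits, Kcnj9 had the smallest p. It encodes a G protein-gated inward rectifier (GIRK) subunit that lets inhibitory neurotransmitter receptors hyperpolarize neurons, and lies on chromosome 1 from 172320501 to 172329318 on the minus strand (GRCm38). Its level was 25.2, 31.1 and 36.9 FPKM in vehicle 1, 2 and 3 and 40.5, 36.7 and 39.7 FPKM in resveratrol 1, 2 and 3. The resveratrol libraries lay close together and vehicle 3 lay among them, while vehicle 1 and 2 were lower. The means were 31.1 ± 5.84 and 39 ± 2 FPKM (SD over 3 mice), the log2 fold change was 0.34 ± 0.14 (SE), and limma gave an unadjusted p of 0.0354 and an adjusted p of 0.987. Without vehicle 1 the log2 fold change was 0.20, and with vehicle 1 and 2 both left out it was 0.08. The GIRK partners stood at a log2 fold change of 0.08 for Kcnj3 and -0.11 for Kcnj6. Of the 10 inward rectifiers, 7 were higher and 3 lower, the median being 0.08 on the log2 scale, and 0 passed the adjusted test. Kcnj4 gave 51.1, 49 and 57.3 FPKM in vehicle and 49.9, 54.6 and 61.6 FPKM in resveratrol. The ranges overlapped, with resveratrol 3 above every vehicle library. Kcnj11, the pore of the neuronal ATP-sensitive channel, had a log2 fold change of 0.14, and its sulphonylurea receptor Abcc8 measured 3.68, 5.65 and 4.29 FPKM in vehicle and 5.37, 5.32 and 4.61 FPKM in resveratrol.

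The groups of 2 of the 72 members did not overlap (2.78%, against 6.28% of all genes), and both were higher in resveratrol, as 4.28% of all genes were. Kcnk3 encodes an acid-sensitive K2P leak channel, and lies on chromosome 5 from 30588170 to 30625271 on the plus strand. It measured 3.12, 3.74 and 4.17 FPKM in vehicle and 4.21, 4.31 and 4.39 FPKM in resveratrol. The gap between vehicle 3 and resveratrol 1 was narrow, and the log2 fold change was 0.21 ± 0.14 (SE), with a limma p of 0.155 (adjusted p = 0.987). Kcns1, a silent subunit that modifies Kv2 channels, lies on chromosome 2 from 164163619 to 164171113 on the minus strand. Its values were 5.58, 6.2 and 6.75 FPKM in vehicle and 7.5, 7.31 and 7 FPKM in resveratrol, a log2 fold change of 0.22 ± 0.12 (limma adjusted p = 0.987). Vehicle 1 was the lowest library for both genes. Without it the log2 fold change was 0.11 for Kcnk3 and 0.16 for Kcns1.

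Among the other K2P channels, Kcnk12 had 2, 2.89 and 3.45 FPKM in vehicle and 2.8, 2.91 and 4.59 FPKM in resveratrol. Its log2 fold change of 0.26 was 0.06 without resveratrol 3 and 0.07 without vehicle 1. Kcnk1 measured 48, 46.2 and 58.5 FPKM in vehicle and 58.5, 53.7 and 57.8 FPKM in resveratrol, so vehicle 3 reached the top of the resveratrol range. Of the 9 K2P genes 6 were higher and 3 lower. The other silent subunits overlapped between the groups. Kcns2 measured 16.4, 12.7 and 15 FPKM in vehicle and 13.8, 12 and 11.3 FPKM in resveratrol, a log2 fold change of -0.24 with overlapping groups, and the abundant Kcnv1 measured 45, 46.8 and 55.4 against 58.3, 48.9 and 44.9 FPKM.

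Among the voltage-gated alpha subunits, 5 of 6 Kv1, 1 of 2 Kv2, 3 of 4 Kv3, 3 of 3 Kv4, 3 of 4 Kv7 and 1 of 6 EAG genes had negative fold changes. Over all genes 43.9% did, a smaller share than in each of these families except EAG. Of the voltage-gated genes 0 passed the test. Kcna5, a delayed rectifier subunit, had the lowest fold change of all members. It measured 2.39, 2.7 and 1.89 FPKM in vehicle and 0.709, 1.82 and 2.09 FPKM in resveratrol. Resveratrol 1 stood far below the other libraries, and the log2 fold change of -0.54 ± 0.27 (limma adjusted p = 0.987) was -0.20 without it. The axonal Kcna2 gave 57.3, 57.9 and 46 FPKM in vehicle and 60.5, 51.9 and 43.2 FPKM in resveratrol, with no separation.

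Kcnc2, of the Kv3 family that allows fast-spiking interneurons to fire at high rates, had 22.3, 26.3 and 23.6 FPKM in vehicle and 29.6, 24.8 and 22.3 FPKM in resveratrol. The groups overlapped, and the log2 fold change was 0.08 ± 0.13. The summed FPKM of 12 interneuron markers ran from 644 to 736 in vehicle and from 732 to 760 in resveratrol, with 5 higher and 7 lower and none at 0, and its part in the Kv3 values was not tested. Kcnd1, the least abundant Kv4 gene, measured 1.57, 2.32 and 0.763 FPKM in vehicle and 1.13, 1.2 and 0.995 FPKM in resveratrol. Vehicle 1 and 2 stood above every resveratrol library and vehicle 3 below all of them. Its log2 fold change of -0.27 was -0.01 without vehicle 2, -0.59 without vehicle 3 and 0.35 with vehicle 1 and 2 left out. The predominant Kv4 gene, Kcnd2, measured 45.7, 40.3 and 35.1 against 43.5, 39.8 and 36.5 FPKM, a log2 fold change of -0.01.

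The ERG gene Kcnh7 measured 61.3, 58.5 and 58.8 FPKM in vehicle and 78, 58.7 and 48.8 FPKM in resveratrol. Here the vehicle libraries were close and the resveratrol libraries enclosed them. In the EAG family 5 of 6 genes were higher, and the median was 0.05 on the log2 scale.

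Of the calcium-activated channels, Kcnma1 gave 73.7, 76.7 and 58.5 FPKM in vehicle and 75.8, 61.8 and 59.2 FPKM in resveratrol, a log2 fold change of -0.08 that was -0.20 without vehicle 3 and -0.01 without vehicle 2. The SK channels, which calmodulin opens and which carry the afterhyperpolarization, had 3 genes in the table, whose groups all overlapped. Kcnn2 measured 14.1, 18.9 and 13.7 against 17.1, 14.5 and 14.8 FPKM, Kcnn1 2.84, 2.58 and 3.75 against 3.62, 3.6 and 4.55 FPKM, and Kcnn3 4.41, 4.57 and 2.04 against 1.99, 2.94 and 2.9 FPKM. Vehicle 3 lay within the resveratrol range for Kcnn1 and Kcnn3 alike, while vehicle 1 and 2 lay below it for Kcnn1 and above it for Kcnn3. The log2 fold changes were 0.32 ± 0.16 for Kcnn1 and -0.37 ± 0.26 for Kcnn3 (limma adjusted p = 0.987 for both), and with vehicle 1 and 2 left out they were 0.05 and 0.28. Leaving out 1 library at a time, the Kcnn3 value ran from -0.70 without vehicle 3 to -0.20 without vehicle 2.

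Of the 10 auxiliary subunits 6 were higher and 4 lower, the median being 0.10 on the log2 scale, and 0 passed the test. Kcnmb4, the neuronal beta subunit that slows BK gating, measured 33.8, 40.8 and 54.9 FPKM in vehicle and 52.4, 49.7 and 59.4 FPKM in resveratrol. Again vehicle 3 lay within the resveratrol range, and the log2 fold change of 0.34 ± 0.17 (limma adjusted p = 0.987) was 0.18 without vehicle 1 and -0.03 with vehicle 1 and 2 left out. Kcnab2 had 74.4, 82.7 and 86.6 FPKM in vehicle and 85, 97.5 and 103 FPKM in resveratrol, a log2 fold change of 0.22 ± 0.11 (limma adjusted p = 0.987). Kcnab3 measured 15.9, 21.1 and 27.6 against 28.3, 27.6 and 20.9 FPKM, where vehicle 1 was lowest, and its log2 fold change of 0.27 was 0.07 without that library. The KChIP gene Kcnip4 gave 33.8, 40.9 and 47.3 FPKM in vehicle and 54.8, 48.5 and 42.1 FPKM in resveratrol, a log2 fold change of 0.26 that was 0.13 without vehicle 1. Kcnip2 measured 55.3, 49.2 and 38.6 against 37.7, 50.2 and 44.4 FPKM. Kcne1l, the sole KCNE gene analysed, measured 0.975, 1.31 and 2.02 against 0.795, 1.5 and 2.05 FPKM. Of the noncoding transcripts, Kcnq1ot1, the antisense RNA of an imprinted domain, gave 8.17, 8.17 and 3.94 against 7.84, 6.8 and 5.42 FPKM. Kcnmb4os2 gave 0.562, 1.07 and 0.836 against 0.434, 0.412 and 0.732 FPKM. It overlaps exons of Kcnmb4 on the other strand, and although the library kit keeps strand, the sources used here do not state whether counting used it, so reads of this pair may be mixed. Exons of 24 members overlap another gene on the other strand in GENCODE M21, those of Kcnj9 and Kcnk3 included, and the same limit holds for them. Kcnj14 and Kcnk4 have 30.8% and 13.2% of their 50-base words in other transcripts too, so their levels are uncertain.

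The authors' deposited table gave an unadjusted p under 0.05 for 7 of 72 members (9.72%, against 5.95% of all genes tested here), among them Kcnn3 (p = 0.00155), Kcna5 (p = 0.00475), Kcnj9 (p = 0.0225), Kcnd1 (p = 0.0254), Kcnn1 (p = 0.033) and Kcnmb4 (p = 0.0355). By q under 0.05, the authors' deposited table held 0 members (0.729% of all genes did), and the smallest member q was 0.133. In each of these named genes vehicle 1 and 2 lay on the same side of vehicle 3, an arrangement that most genes had.

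Summed FPKM overlapped between the groups in all families but 2, and no test was run on the sums. Kv1 beta subunits summed to 157 ± 4.4 FPKM with vehicle and 170 ± 10.6 FPKM with resveratrol (SD over 3 mice), and K2P subunits to 97.6 ± 4.65 and 103 ± 0.222 FPKM. Both gaps were narrow. The leading genes, Kcnab2 (53.9% of the Kv1 beta sum) and Kcnk1 (53.7% of the K2P sum), each overlapped between the groups. Kv1 beta reached 162 FPKM in vehicle 1 against 163 FPKM in resveratrol 1. K2P stood at 100 FPKM in vehicle 2 and 3 against 103 FPKM in each resveratrol library, with vehicle 1 lower at 92.2 FPKM. The 10 auxiliary genes, the Kv1 beta genes among them, together summed to 345 ± 14.9 and 377 ± 13.7 FPKM, while the 51 conducting genes summed to 1038 ± 86.4 and 1040 ± 79.9 FPKM. Of the auxiliary genes 6 were higher and 4 lower. Mean Kcnab2 was 81.3 and 95.2 FPKM and mean Kcnmb4 43.2 and 53.8 FPKM, while mean Kcnab1 was 54.4 and 49.5 FPKM. With vehicle 1 and 2 left out, log2 fold changes were 0.13 for Kcnab2 and -0.03 for Kcnmb4.

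**Figure D3:**
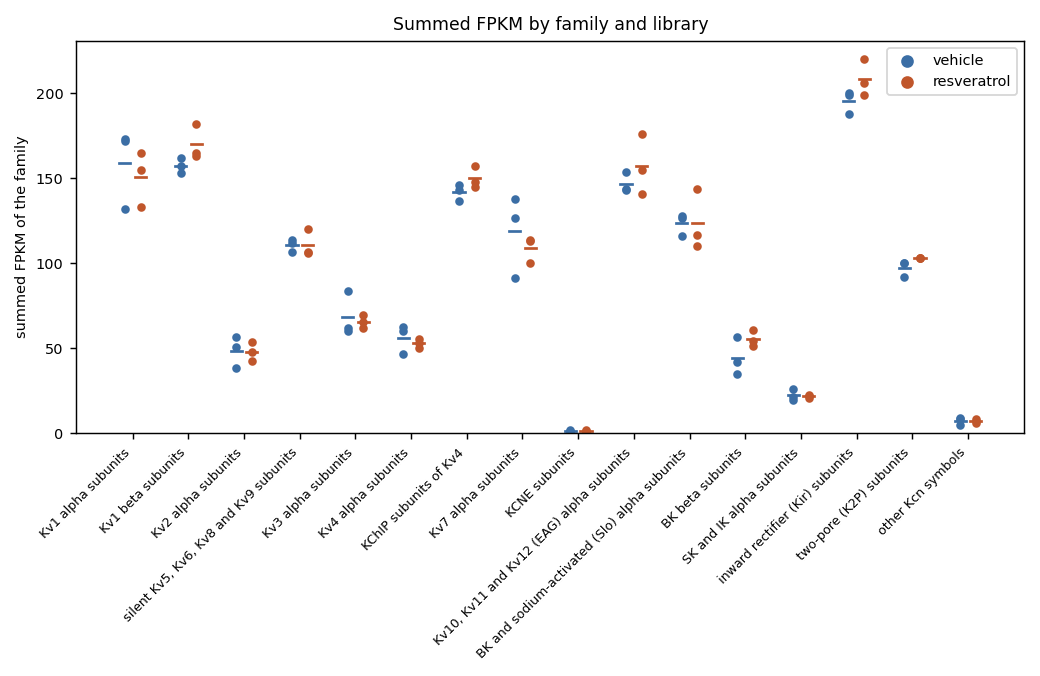
Summed FPKM of each channel family in the 6 libraries, 1 point per library and a short line at each group mean. The Kv1 beta (157 against 170 FPKM) and K2P (97.6 against 103 FPKM) sums do not overlap between groups, and the other families do.

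Of the 72 members, 34 were higher in both vehicle 1 and 2 than in vehicle 3 (47.2%, against 37.9% of all genes) and 22 lower in both (30.6%, against 41.5%). The highest value fell in vehicle 2 for 24 members and in resveratrol 1 for 21. Deviations went with transcript length, and in some libraries with GC content. The Spearman coefficient across the 72 members between a gene's deviation from its own mean and its longest transcript was 0.471 in vehicle 1 and 0.332 in vehicle 2 but -0.539 in vehicle 3 and -0.463 in resveratrol 3, and over all genes it was 0.31, 0.474, -0.502 and -0.327. In resveratrol 1 the coefficient with length across the members was 0.089. The coefficient with GC content across the members was -0.304 in vehicle 1, -0.516 in resveratrol 1 and 0.533 in resveratrol 3. In the other libraries it ran from 0.107 to 0.16. Members share the libraries, so these are descriptions with no test. Fold changes also went with length (Spearman -0.339 over members, -0.313 over all genes), with 22 of the 36 shorter members higher and 21 of the 36 longer members lower. The part of length or GC content in the fold changes was not tested. With lengths and GC content fitted out, 0 members passed. The log2 fold change moved from 0.34 to 0.29 for Kcnj9, from 0.34 to 0.31 for Kcnmb4 and from -0.37 to -0.32 for Kcnn3. Kcns1 fell further, from 0.22 to 0.12, and Kcnk12 from 0.26 to 0.13. Kcna5 went from -0.54 to -0.61 and Kcnmb4os2 from -0.36 to -0.52. Kcna5 and Kcnmb4os2 were the 2 members at an unadjusted p under 0.05 in that limma fit, and Kcnj9 was no longer among them.

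**Figure D4:**
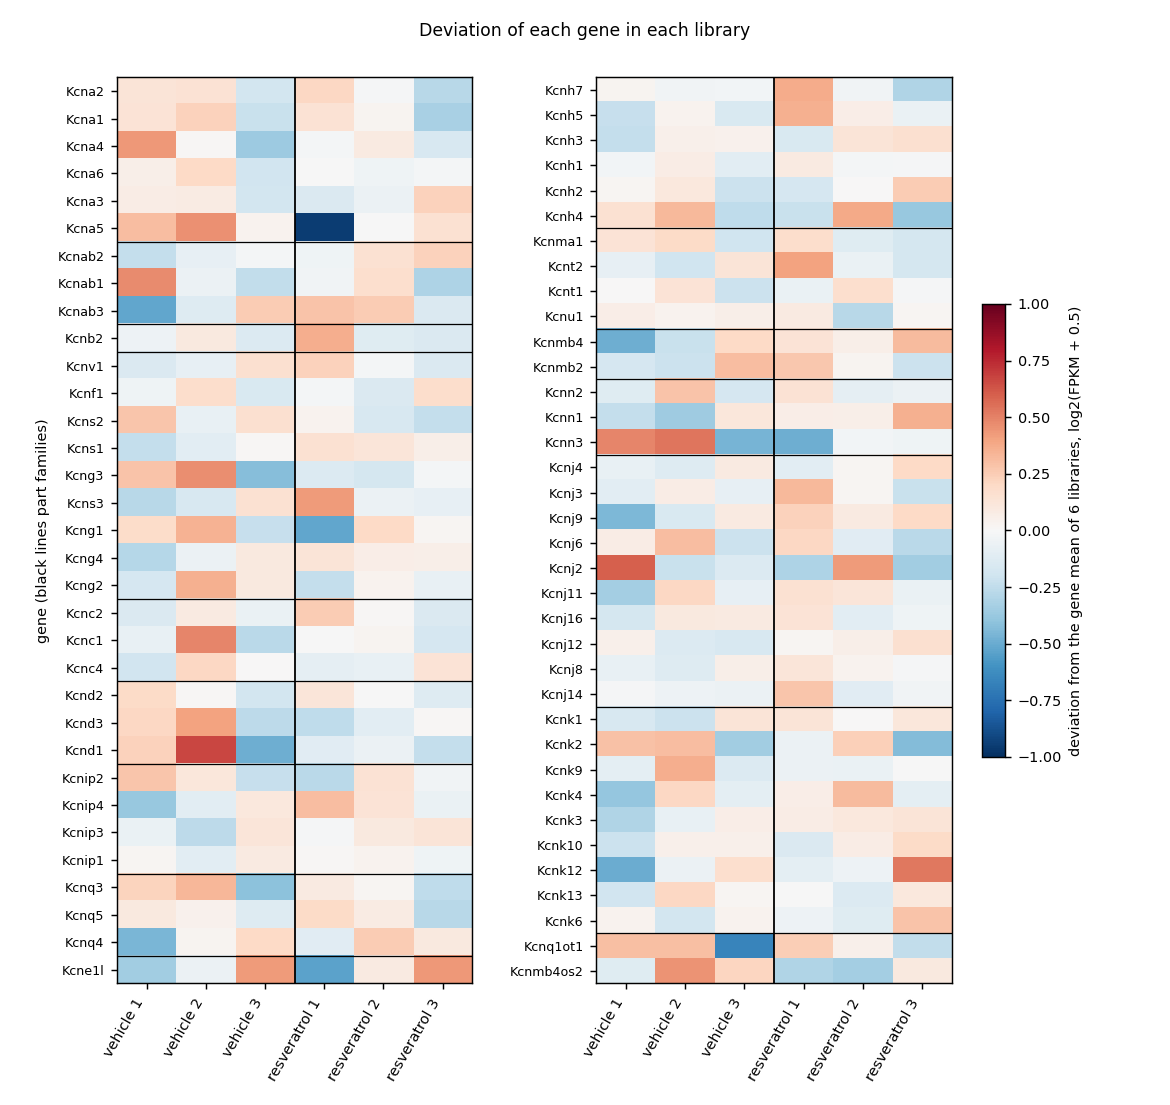
Deviation of each reported Kcn gene in each library from its mean over the 6 libraries, on log2(FPKM + 0.5), in family order, with a line between the vehicle and the resveratrol libraries. Kcnd1 and Kcnn3 are high in vehicle 2 and low in vehicle 3, Kcnj9, Kcnmb4 and Kcnab3 are low in vehicle 1, and Kcna5 is low in resveratrol 1.

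**Figure D5:**
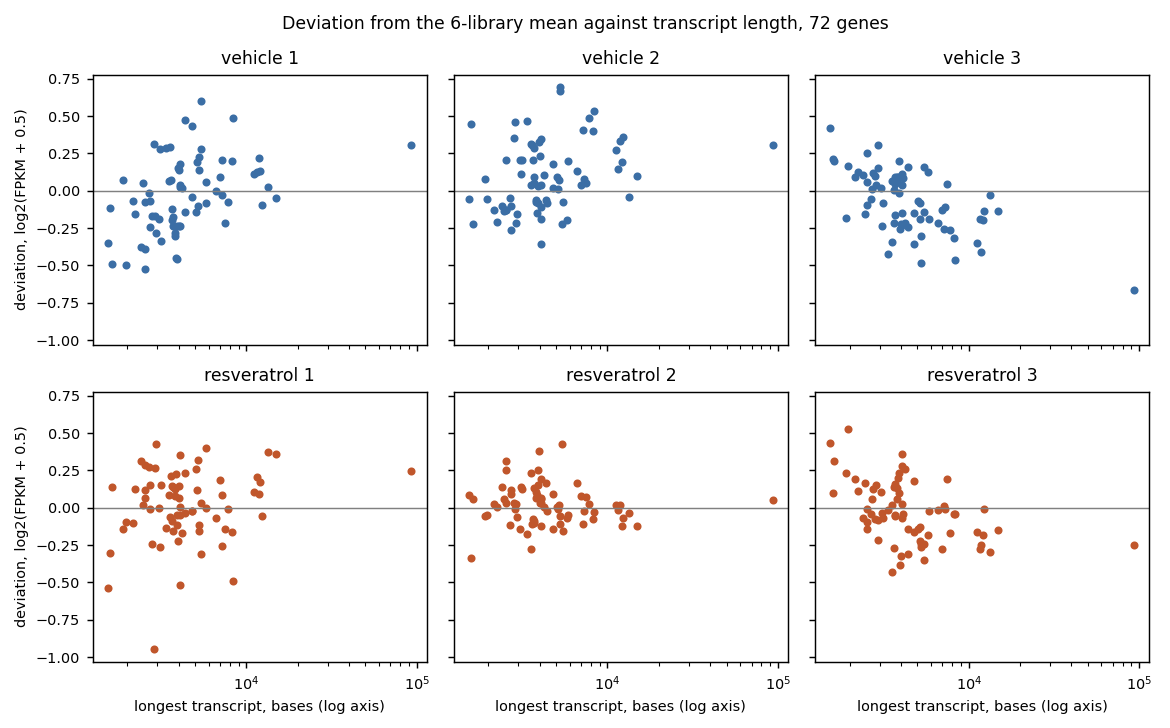
Deviation of each Kcn gene from its own mean against the length of its longest transcript, one panel per library, with length on a log axis. Spearman coefficients across the 72 genes are positive in vehicle 1 (0.471) and vehicle 2 (0.332) and negative in vehicle 3 (-0.539) and resveratrol 3 (-0.463).

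Leaving out vehicle 3 alone put 15 members (20.8%) at an unadjusted p under 0.05, against 17.3% of all genes, and 0 members at an adjusted p under 0.05. The other libraries left out 1 at a time each gave 1 or 2 members at an unadjusted p under 0.05 (1.39% to 2.78%), against 1% to 2.97% of all genes.

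Of 41 listed proteins that bind or modify these channels, 38 were measured above the filter, 18 higher and 20 lower, their median on the log2 scale was -0.01, and 0 passed the test. Dpp6, which joins Kv4 complexes, measured 59.9, 62.8 and 46 FPKM in vehicle and 48.1, 53.9 and 56.9 FPKM in resveratrol, and Dpp10 75.6, 74.3 and 84 against 93.1, 80.2 and 76.4 FPKM. Abcc9 measured 2.02, 2.18 and 1.2 against 1.33, 1.85 and 1.69 FPKM. The groups of 1 of the 38 partners did not overlap, against 6.28% of all genes. This was Lgi3, a secreted Kv1-associated protein, at 23.4, 26 and 25.7 against 26.7, 27.9 and 27.3 FPKM (limma adjusted p = 0.987). Of 10 listed HCN and cyclic nucleotide-gated genes, relatives of these channels that pass mixed cations, 4 were tested and 0 passed. Hcn2 gave 26.2, 32.6 and 27.7 against 22.9, 27.2 and 29.4 FPKM, and Hcn3 1.53, 1.71 and 1.88 against 1.12, 2 and 2.25 FPKM. Of these 4, 1 did not overlap between groups, against 6.28% of all genes. This was Cnga4, close to the filter of 0.5 FPKM, at 0.502, 0.452 and 0.373 against 0.775, 0.655 and 0.578 FPKM, with a limma adjusted p of 0.987. Hcn4 was not among the genes analysed here.

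Marker lists described the samples by summed FPKM, which abundant genes dominate and which does not give the share of a cell type. Pan-neuronal markers were present at 3134 to 3402 summed FPKM in vehicle and 3166 to 3580 in resveratrol, and none of these genes was at 0. Excitatory, astrocyte, precursor, microglial, endothelial and pericyte sums overlapped between groups. Mature oligodendrocyte markers were lower in 11 of 12 genes, and sums ran from 1648 to 1786 against 1417 to 1659. Choroid plexus markers were higher in 8 of 8 (median log2 fold change 0.42), summing to 129 to 253 in vehicle and 168 to 630 in resveratrol. Ttr alone was 441 of the 630 in resveratrol 3. Ependymal markers were lower in 8 of 9, at 19.6 to 22.4 against 15.2 to 16.1. Striatal markers were lower in 15 of 15, with sums of 982, 590 and 387 in vehicle 1, 2 and 3. In resveratrol 1, 2 and 3 the striatal sums were 334, 692 and 469, so vehicle 1 and resveratrol 2 were highest. Over all genes 56.1% were higher and 43.9% lower. Genes of a list share the libraries, so these counts are descriptions with no test. No marker gene passed the adjusted test, and the part of these cells in the potassium channel values was not tested.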

How the data were processed

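RNA of the right cortex was sequenced from 3 mice given vehicle and 3 given resveratrol (TruSeq Stranded Total RNA with ribosomal depletion, per the labels' protocols). STAR, Cufflinks and Cuffdiff and the build GRCm38 are named in the submitters' processing notes, without versions of the tools. The deposited FPKM values, 1 column per mouse, were used as the authors gave them. The authors' p-value and q-value and their deposited log2 fold changes come from the same table, per the file headers, and served only for the sentences that name the authors' deposited table. Depth is unknown: low FPKM scaled by transcript length fell on whole steps, within a tolerance of 0.1 of a step, for 28.9% to 31.1% of values at best. Positions given in the table overlapped the GRCm38 gene of the same name for 15.2% of matched genes and are not printed.

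Genes at 0.5 FPKM or more on average (13574, with 2 genes left out for a failed value) were tested with limma 3.58.1 (R 4.3.3; eBayes with a trend, two-sided) on log2(FPKM + 0.5), the pseudocount being 0.5, with Benjamini-Hochberg adjustment over all genes and a threshold of 0.05. The fit was tested on simulated data with noise drawn independently for each gene and library. That setting lacks the deviations shared across genes within a library, so it does not give the error rate for these data. Python 3.11.15 made the tables, and gene names were matched to GENCODE M21 for 96.1% of rows. Values in every library are given for the leading gene of each family, for genes whose groups do not overlap or with an unadjusted p under 0.05, and for the 6 largest fold changes in each direction; partner and HCN genes by the same tests plus 8 fixed names. The alternatives were other pseudocounts, filters and scalings, a length and GC correction, a replicate block, array weights and leaving out libraries. Members, families and lists were chosen with earlier results of these data known. A few genes and sequences that these rules cover are not reported here.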

Additional observations from a re-analysis of the deposited data

How the results depend on the processing

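Kcn genes called at an adjusted p under 0.05 numbered 0 in each direction under every alternative except array weights. Estimated gene by gene, as the default estimate stopped before it converged, these called 903 genes higher and 487 lower, of which 9 and 3 were Kcn genes, with weights of 4.02 for vehicle 1 and 3.55 for resveratrol 2 and under 1 for the others. The default (REML) estimate, added after the data were seen, called 2889 and 2038, of which 19 and 11 were Kcn genes, with weights of 5.02 and 9.2 on those libraries. The cause was not tested. Leaving out 1 library at a time gave 1 to 3 genes higher and 0 to 5 lower over all genes (3 higher without vehicle 2, 2 higher and 5 lower without vehicle 3) and a member median log2 fold change of -0.04 to 0.05. Leaving out vehicle 1 and 2 together, chosen with earlier results known, gave 3 genes higher and a median of 0.11, and assumes that the lone vehicle library varies like the others. With a replicate block 1 gene was called higher and 0 lower, 0 Kcn genes were called, 4 were at an unadjusted p under 0.05 (5.56%, against 4.75% of all genes), and the median was 0.02. Same-numbered libraries deviated together by correlations of 0.0383, 0.148 and 0.184, so the numbers were not taken to pair the mice.

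Members with a lower resveratrol mean numbered 35, and from 24 (without vehicle 2) to 41 (without resveratrol 1) with 1 library left out. Among the Kcn genes given library by library, log2 fold changes turned sign as follows, none of them called in the main test; the other members are not listed. Quantile normalization gave 0.01 for Kcne1l and -0.01 for Kcnh7. The length and GC correction gave 0.02 for Kcna2, 0.01 for Kcnd2 and -0.05 for Kcnj4. Array weights gave 0.34 for Kcne1l, -0.04 for Kcnh7, 0.03 for Kcnn2 and -0.22 for Kcnq1ot1, and by REML 0.38 (adjusted p = 0.0367 in limma), -0.05, 0.02 and -0.22. With vehicle 1 and 2 left out the values were 0.16 for Kcna2, -0.12 for Kcnab3, -0.13 for Kcnv1, 0.18 for Kcnd2, 0.35 for Kcnd1, 0.18 for Kcnip2, 0.16 for Kcnma1, -0.03 for Kcnmb4, 0.16 for Kcnn2, 0.28 for Kcnn3, -0.05 for Kcnj4, -0.05 for Kcnk1 and -0.04 for Kcnk12. Leaving out single libraries gave ranges that include 0 for Kcna2 (-0.17 to 0.07), Kcnc2 (-0.03 to 0.17), Kcnd2 (-0.11 to 0.08), Kcne1l (-0.23 to 0.26), Kcnh7 (-0.15 to 0.18), Kcnip2 (-0.25 to 0.01), Kcnj4 (-0.00 to 0.15), Kcnn2 (-0.08 to 0.14), Kcnq1ot1 (-0.29 to 0.20) and Kcnv1 (-0.06 to 0.14).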
